A study of Mus musculus with 32 samples.

Results

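The small intestine of mice that lacked both Fabp2 and Fabp6 was compared with that of mice that lacked Fabp6 alone, which asks how expression differs with Fabp2 missing as well where Fabp6 is already missing. The 4 Fabp2-/-;Fabp6-/- pools (Fabp26KO) and the 4 Fabp6-/- pools (Fabp6KO) were taken by their labels from the 16 pools of the series, which also holds 4 WT and 4 Fabp2-/- pools (Fabp2KO). Each genotype had 2 male and 2 female pools, each of RNA from 2 mice, and the labels and methods name 10-week-old, fasted mice on the C57BL/6J background that received a standard diet and no treatment. Both groups carry the Fabp6 disruption, and the double line was bred by crossing the 2 single lines, so that the breeding line and the loss of Fabp2 cannot be told apart. Whole small intestine from stomach to cecum was used, and in such bulk tissue fewer cells of a type and less RNA per cell cannot be told apart. Expression was measured on Affymetrix 430A and 430B arrays as log2 signal for 18195 different genes, and every difference below is Fabp26KO minus Fabp6KO as a log2 fold change, with the sexes weighted equally. A gene was called higher or lower at an FDR under 0.2 and a log2 fold change past 0.5 in size in limma, the thresholds of the study. Pool values are always given in the order M-1, M-2, F-1 and F-2, where M and F are male and female pools.

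Fatty acid-binding proteins carry hydrophobic ligands through the cytoplasm. FABP2 binds long-chain fatty acids in enterocytes along the whole small intestine, FABP1 binds fatty acids and other lipids in the same cells, and FABP6 binds bile acids in the enterocytes of the ileum. The lining of the intestine also displays antigen. Interferon-gamma, released mainly by lymphocytes, induces CIITA, the master regulator of the MHC class II genes, as well as the peptide-loading machinery of MHC class I and large families of GTPases that attack intracellular microbes. Enterocytes of the same lining carry out much of the first-pass detoxification of food compounds, through cytochromes P450, esterases, glutathione transferases and glucuronosyltransferases.

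Fabp2 signal was 12.79, 12.91, 13.00 and 12.83 in the Fabp6KO pools and 8.98, 9.98, 9.75 and 9.41 in the Fabp26KO pools. It thus fell by 3.35 on the log2 scale (SE 0.15, 95% CI -3.67 to -3.03, adjusted p = 9.65e-10), to a level that the 4 Fabp2KO pools also had (9.03 to 9.45). Fabp6 signal was 4.91, 4.88, 4.80 and 9.21 in the Fabp6KO pools and 4.98, 4.91, 4.91 and 5.04 in the Fabp26KO pools. The pool labelled Fabp6KO-F-2 therefore held Fabp6 transcript, at 32.1% of the mean of the WT female pools, and results that rest on it are given with and without it. Fabp1, the liver-type family member, did not pass the test (-0.02, 95% CI -0.15 to 0.11, adjusted p = 0.925). Medians over each array ran from 6.57 to 6.62 for 430A and from 5.89 to 5.92 for 430B. The log2 ratio of 3′ to 5′ probe sets of Gapdh, a sign of RNA quality, was -0.05 to 0.02 in the Fabp6KO pools and -0.07 to 0.05 in the Fabp26KO pools. Of 164 probe sets present on both arrays, 7 of the 8 pools correlated best with themselves across the arrays. The pool Fabp26KO-M-2 correlated better with Fabp26KO-M-1 (r = 0.41) than with itself (r = 0.32).

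In the Fabp26KO pools 142 genes were called lower, or 0.78% of all genes tested, and 83 higher, or 0.456%. Of the 225 called genes, 211 also passed an FDR of 0.05. The 4 Fabp26KO pools lay wholly below the 4 Fabp6KO pools for 116 of the 142 lower genes and wholly above for 57 of the 83 higher genes. The calls were made on the same values, so this separation is partly built into them and gives no separate support. In 5 lists of genes of antigen presentation and of the interferon response, with 100 different genes measured, 32 were called lower and none higher, with a median log2 fold change of -0.23 against 0.02 over all genes. They were 22.5% of all genes called lower. In 3 lists of P450, glutathione, and esterase and conjugation genes, with 131 measured, 19 were called higher and none lower, with a median of 0.12. The plot of 16 gene lists sets these groups beside other lists.

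**Figure D1:**
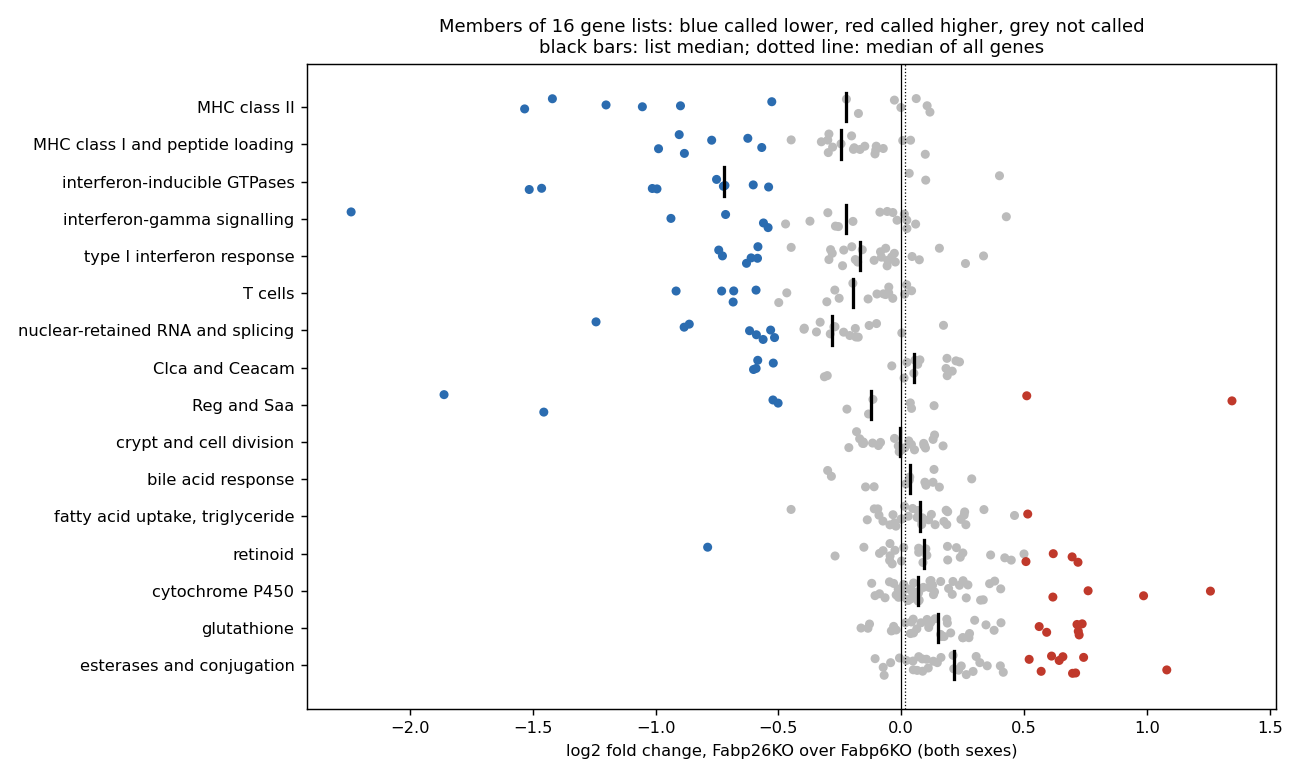
Log2 fold change of Fabp26KO over Fabp6KO for each measured member of 16 gene lists (1 point a gene, x axis), with lists in rows. Members called lower are blue, members called higher are red, black bars are list medians and the dotted line is the median of all genes (0.02). The blue points are crowded in the interferon and antigen presentation rows, and the red points in the P450, glutathione, esterase and retinoid rows.

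The promoters of 4 of the genes that fell are printed first, since the factors that act in the interferon response bind short known sequences. The 250 bases before the transcription start are given 5′ to 3′ on the strand of the gene, from RefSeq on GRCm38.p6, with matches of the next 2 motifs in capitals. GAAANNGAA is part of the interferon-stimulated response element bound by IRF factors, and CCAAT is the box that MHC class II promoters share. Each motif was searched on both strands.
Igtp, chr11:58199306-58199555, plus strand: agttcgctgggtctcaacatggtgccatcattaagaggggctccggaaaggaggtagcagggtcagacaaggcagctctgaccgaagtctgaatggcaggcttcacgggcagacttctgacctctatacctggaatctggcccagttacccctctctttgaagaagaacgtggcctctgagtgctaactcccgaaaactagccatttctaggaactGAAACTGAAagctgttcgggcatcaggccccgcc
Irgm2, chr11:58214727-58214976, plus strand: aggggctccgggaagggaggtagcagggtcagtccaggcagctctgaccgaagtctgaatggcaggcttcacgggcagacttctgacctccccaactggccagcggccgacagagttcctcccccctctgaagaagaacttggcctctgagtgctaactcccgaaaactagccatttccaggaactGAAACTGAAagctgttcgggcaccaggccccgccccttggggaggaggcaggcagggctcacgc
Gbp2, chr3:142620413-142620662, plus strand: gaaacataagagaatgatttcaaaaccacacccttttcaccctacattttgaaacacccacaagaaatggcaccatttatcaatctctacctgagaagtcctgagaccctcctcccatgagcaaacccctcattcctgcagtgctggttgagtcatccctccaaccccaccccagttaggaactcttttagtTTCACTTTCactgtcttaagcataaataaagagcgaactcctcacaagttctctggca
H2-Aa, chr17:34287824-34288073, minus strand: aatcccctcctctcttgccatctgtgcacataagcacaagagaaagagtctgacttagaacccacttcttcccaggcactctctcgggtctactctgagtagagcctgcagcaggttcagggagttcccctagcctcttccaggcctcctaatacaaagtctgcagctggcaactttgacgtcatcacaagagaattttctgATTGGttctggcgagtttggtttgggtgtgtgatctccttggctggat

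The neighbouring genes Igtp and Irgm2 share a run of 29 bases around the response element motif, and a run of 55 bases farther from the start without it. In Gbp2 the response element lies on the other strand, 58 bases before the start, and in H2-Aa the CCAAT box lies on the other strand, 48 bases before it. Of the 32 genes of these lists that were called lower, 20 had a promoter in the RefSeq table. The response element motif was in 8 of the 20 (40.0%) and in 7.16% of all 27025 promoters, and CCAAT in 11 (55.0%) and in 34.5%. Of the 19 detoxification genes that were called higher, 16 had a promoter, and none of these held the response element motif, while CCAAT was in 10 (62.5%). TGACNNNGC, the core of the antioxidant response element, was in 1 of those 16 (6.25%), that of Gsta3, in 3 of the 20 promoters of lowered genes (15%), those of Igtp, Irgm2 and Oasl2, and in 10.1% of all promoters. The lists were written for interferon and antigen presentation genes, so a larger share with the response element motif is partly built into them. Members of the lists that were not called were not counted, so the shares say nothing on why genes fell. The related Igtp and Irgm2 promoters count as separate matches. These matches describe letters in these windows only.

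Of 13 MHC class II genes measured, 6 were called lower and none higher, with a list median of -0.22. H2-Ab1, the beta chain of the I-A molecule, had signals of 10.98, 10.87, 10.34 and 10.97 in the Fabp6KO pools and of 9.22, 9.50, 9.60 and 9.17 in the Fabp26KO pools. All Fabp26KO pools lay below all Fabp6KO pools, among which F-1 was lowest, and 37.4% of the signal was left (-1.42, SE 0.12, adjusted p = 3.96e-06). H2-Aa, the alpha chain of the same molecule, read 7.87, 7.57, 6.90 and 7.51 in the Fabp6KO pools and 5.66, 5.90, 6.15 and 6.01 in the Fabp26KO pools (-1.53, SE 0.14, adjusted p = 4.88e-06), and it was also called on the other array (-1.37). Cd74, the invariant chain that guards the peptide groove, read 12.21, 12.22, 11.91 and 12.09 against 10.75, 11.06, 11.21 and 10.61 (-1.20, SE 0.11, adjusted p = 5.12e-06). The same order held for H2-Eb1 (-0.90), another beta chain, and for Ciita, the regulator of the whole set, which was called on both arrays (-0.53 and -0.66). Without Fabp6KO-F-2 the 430A value of Ciita was -0.46. H2-DMa, a peptide exchange factor, fell by 1.05 on 430A, while its probe set on 430B gave 0.02 and was not called.

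In the MHC class I pathway the calls fell on the regulator, the immunoproteasome and the peptide pump. Nlrc5, the class I counterpart of CIITA, read 6.47, 6.16, 5.94 and 6.03 in the Fabp6KO pools and 5.35, 5.44, 5.34 and 5.39 in the Fabp26KO pools (-0.77, SE 0.08, adjusted p = 2.15e-05). Tap1, a subunit of the pump that moves peptides into the endoplasmic reticulum, read 9.23, 8.96, 8.56 and 8.43 against 7.80, 7.86, 8.01 and 7.96 (-0.88, SE 0.10, adjusted p = 7.72e-05). The groups did not overlap in either gene, and the Fabp6KO male pools were the highest of all for Tap1. The immunoproteasome subunits Psmb8 (-0.99) and Psmb9 (-0.90) and the heavy chain H2-D1 (-0.57) were also lower. Psmb8 was not called on the other array (-0.44), nor H2-D1 by its probe set of highest signal (-0.35). The light chain B2m, which every class I molecule contains, read 12.33 to 12.46 in the Fabp6KO pools and 12.18 to 12.28 in the Fabp26KO pools, a difference of -0.15 (95% CI -0.28 to -0.01) that did not pass the threshold (adjusted p = 0.215). Altogether 6 of 25 genes of the list were called lower and none higher (median -0.24).

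Among the interferon-inducible GTPases, 9 of 12 measured were called lower, with a list median of -0.72. Igtp, an immunity-related GTPase that acts on vacuoles of microbes, read 10.09, 9.83, 9.24 and 9.34 in the Fabp6KO pools and 8.12, 8.22, 8.14 and 8.17 in the Fabp26KO pools. The double-null pools thus lay within 0.10 of each other and 36.3% of the Fabp6KO signal was left (-1.46, SE 0.11, adjusted p = 5.65e-07). For its neighbour Irgm2 the signals were 8.45, 8.07, 8.02 and 7.52 against 6.29, 6.67, 6.69 and 6.35 (-1.51, SE 0.14, adjusted p = 8.13e-06). Gbp2, a guanylate-binding protein on chromosome 3, read 7.07, 7.17, 6.70 and 6.88 against 5.80, 5.88, 6.03 and 6.07 (-1.01, SE 0.08, adjusted p = 1.02e-06). These 3 genes separated the genotypes in every pool, and the others called lower were Iigp1 (-0.99), Gbp6 (-0.72), Ifi47 (-0.72), Irgm1 (-0.60), Gbp7 (-0.54) and Gbp8 (-0.75). The calls of Gbp7 and Irgm1 were lost without Fabp6KO-F-1 (-0.43) and without Fabp26KO-F-1 (-0.48), respectively. Gbp3 gave 0.03 and was not called. Both Gbp2 and Gbp7 lie on chromosome 3 within 400 genes of Fabp2, so that linkage to the targeted gene and its loss cannot be told apart.

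**Figure D2:**
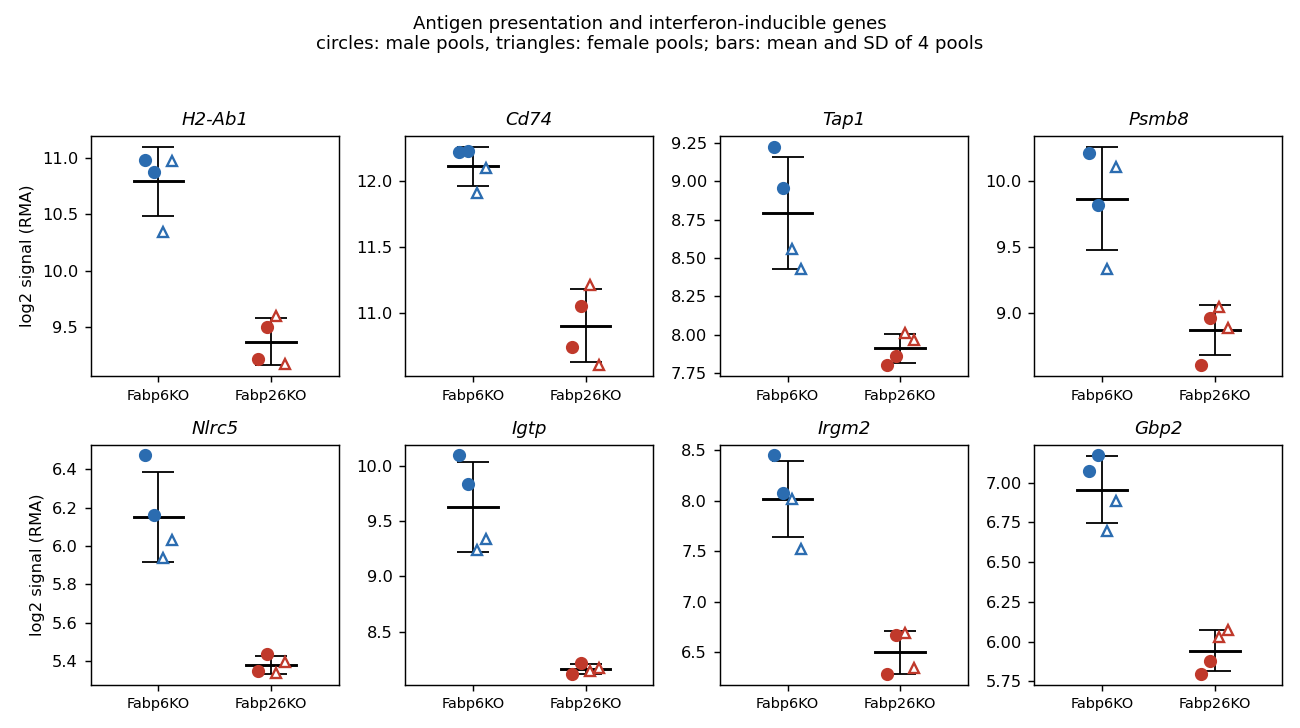
Log2 RMA signal (y axis) of 8 antigen presentation and interferon-inducible genes in the 4 Fabp6KO and 4 Fabp26KO pools (circles male, triangles female, bars mean and SD of 4 pools). In all 8 genes every Fabp26KO pool lies below every Fabp6KO pool, and the Fabp26KO pools of Igtp span only 8.12 to 8.22.

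Ubd, an interferon-gamma-induced ubiquitin-like modifier also known as FAT10, had the largest fall of the 20 genes listed for interferon-gamma signalling. Its signals of 8.98, 8.29, 6.70 and 7.01 in the Fabp6KO pools were higher in males than in females, and those of the Fabp26KO pools were 5.27, 5.69, 5.81 and 5.24. The fold change was -2.24 (SE 0.18, adjusted p = 1.94e-06), with -3.15 in males and -1.33 in females, a difference between the sexes that did not pass the test (adjusted p = 0.3). Ido1, which degrades tryptophan (-0.71), Irf8 (-0.56) and the chemokine Cxcl9 (-0.54, not called on 430B at -0.01) were also called lower. Irf8 was not called without Fabp6KO-F-1 (-0.50), nor Cxcl9 without Fabp6KO-M-1, Fabp6KO-F-2 or Fabp26KO-F-2 (-0.48 to -0.56). Socs3, an inhibitor of cytokine signalling, was called lower at -0.94, but it read 7.56, 7.39, 9.58 and 6.76 in the Fabp6KO pools, so that the call rests on Fabp6KO-F-1. Leaving out any pool other than Fabp6KO-F-2 ended its call, with -0.23 without Fabp6KO-F-1 and -0.89 to -0.98 without the others, and without Fabp6KO-F-2 it was -1.64. The transcript of the cytokine itself, Ifng, was low and alike in both groups, at 4.36 to 4.47 and 4.36 to 4.55 (0.01, 95% CI -0.12 to 0.15). Irf1, an early target of the cytokine, was lower in all Fabp26KO pools and passed the FDR (-0.47, adjusted p = 0.00114) but not the limit on the fold change. Of 30 genes of the type I interferon response, 6 were called lower, among them Stat2 (-0.74), Oasl2 (-0.73), Usp18 (-0.63), Zbp1 (-0.61) and Ifit1 (-0.58), and none higher (median -0.17). Ifit1 was not called without Fabp26KO-M-1 (-0.46), nor Usp18 without Fabp6KO-M-1 (-0.49).

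Of 21 T cell genes 5 were called lower (23.8%, against 0.78% of all genes) and none higher. With the sexes taken apart, 8 were called lower in males and 0 in females, counts that do not test a difference between the sexes. Gzma, a granzyme of cytotoxic lymphocytes, read 10.65, 10.54, 9.83 and 9.85 in the Fabp6KO pools and 9.30, 9.16, 9.53 and 9.21 in the Fabp26KO pools (-0.92, SE 0.10, adjusted p = 4.78e-05). Cd8a, a coreceptor of killer T cells and of many intraepithelial lymphocytes, read 7.61, 7.37, 7.13 and 7.09 against 6.51, 6.65, 6.77 and 6.55 (-0.68, SE 0.07, adjusted p = 3.47e-05), while its 430B probe set gave -0.05. The groups did not overlap in either gene on 430A. Cd3g, a chain of the T cell receptor complex (-0.73), the chemokine Ccl5 (-0.68) and Gzmb (-0.59, not called without Fabp6KO-F-2 at -0.49) were the others called lower. The gene Cd3g lies on chromosome 9. Cd3e, another chain of the complex, gave -0.13 (95% CI -0.29 to 0.02) and was not called. The mean log2 level of the whole T cell list was 6.48 to 6.78 in the Fabp6KO pools, 6.27 to 6.46 in the Fabp26KO pools, 6.53 to 6.71 in the WT pools and 6.38 to 6.53 in the Fabp2KO pools. What part this shift has in the falls of the interferon-inducible genes was not tested. Of 16 B and plasma cell genes, Ighm, the heavy chain of IgM, was the 1 called, at 6.22, 6.85, 6.04 and 7.38 in the Fabp6KO pools and 5.11, 5.32, 5.06 and 5.39 in the Fabp26KO pools (-1.40, SE 0.30, adjusted p = 0.0103). Jchain, which links IgM and IgA subunits, gave 0.01 (95% CI -0.12 to 0.15). None of 18 macrophage and dendritic cell genes was called, and their mean level was 6.92 to 7.11 in the Fabp6KO pools and 6.99 to 7.13 in the Fabp26KO pools.

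Of 12 genes of secreted lectins and acute-phase proteins of the epithelium 4 were called lower and 2 higher. Reg2, a regenerating lectin, read 11.58, 10.49, 8.56 and 9.60 in the Fabp6KO pools and 8.96, 7.68, 8.12 and 8.02 in the Fabp26KO pools (-1.86, SE 0.25, adjusted p = 0.000299). The groups overlapped, and the fold change was -2.71 in males and -1.01 in females, where it was not called. Saa1, an acute-phase protein, was high in the Fabp6KO male pools alone, at 7.74, 7.80, 5.44 and 4.86 against 5.04, 4.96, 5.37 and 4.65. Its fold change was -2.77 in males and -0.14 in females, and the sexes differed past the threshold (adjusted p = 0.0929). That difference was not called without Fabp6KO-M-1 (adjusted p = 0.483), Fabp6KO-M-2 (0.231), Fabp26KO-M-2 (0.305) or Fabp26KO-F-1 (0.871), nor with cyclic loess (0.256), an intensity trend (0.822) or the probe set of highest signal (0.456). Reg3g (-0.50) and Reg3d (-0.52) were lower by little more than the limit. The call of Reg3g was lost without any 1 of 5 pools (-0.24 to -0.51, lowest in size without Fabp6KO-F-1), and it was -0.76 without Fabp6KO-F-2. That of Reg3d was lost without Fabp6KO-M-1, Fabp6KO-F-2, Fabp26KO-M-2 or Fabp26KO-F-2 (-0.40 to -0.45). Reg4, a lectin of secretory cells, had the largest rise of all genes, from 8.86, 9.04, 9.61 and 9.55 to 10.66, 10.26, 10.67 and 10.86. This was 2.54-fold (1.35, SE 0.09, adjusted p = 2.61e-07), with every double-null pool above every Fabp6KO pool. Reg3a rose by 0.51 and was not called without Fabp6KO-M-1, Fabp6KO-F-2, Fabp26KO-M-2 or Fabp26KO-F-2 (0.42 to 0.49).

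The steepest fall of all was that of St3gal4, a sialyltransferase gene on chromosome 9. Its signals were 12.05, 12.15, 12.29 and 11.77 in the Fabp6KO pools and 6.63, 11.41, 6.72 and 6.41 in the Fabp26KO pools. Hence 3 double-null pools were more than 5 log2 units below the Fabp6KO pools, while Fabp26KO-M-2 was near them. The mean difference was -4.27 (SE 0.59, 95% CI -5.53 to -3.02, adjusted p = 0.000354), and without Fabp26KO-M-2 it was -5.47. The 4 Fabp2KO pools lay between 10.33 and 11.80. Sc5d, a cholesterol synthesis enzyme also on chromosome 9, showed the same outlying pool, with 7.91, 8.64, 7.77 and 7.83 in the Fabp26KO pools against 8.58 to 8.66 in the Fabp6KO pools (-0.60, adjusted p = 0.00529). It was not called without Fabp26KO-M-1 (-0.41), nor on 430B (-0.41).

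Called genes were unevenly spread over the chromosomes. On chromosome 3, which carries Fabp2, 33 of 913 genes tested were called (3.61%), and on chromosome 9, 27 of 1002 (2.69%), against 1.24% of all genes. Next came chromosomes 6 (1.91%) and 17 (1.8%, 14 lower and 1 higher). The lowered genes H2-Aa, H2-Ab1, H2-Eb1, H2-DMa, Psmb8, Psmb9, Tap1 and Ubd all lie on chromosome 17. Among the 148 tested genes that lie within 200 genes of Fabp2 on either side, 7 were called (4.73%). These were Ampd2, Elovl6, Tifa, Pde5a, Dapp1 and Fam241a, which were lower, and the unnamed transcript A930005H10Rik, which was higher. Pde5a, which degrades cyclic GMP, read 7.25, 7.13, 7.43 and 7.20 in the Fabp6KO pools and 6.46, 6.38, 6.32 and 6.30 in the Fabp26KO pools (-0.89, SE 0.06, adjusted p = 1.49e-07). Tifa, an adaptor of innate immune signalling, was highest in Fabp6KO-F-1 (9.29, 8.86, 10.45 and 8.46 against 7.70, 7.77, 8.17 and 7.86), so that its fold change of -1.39 became -0.89 without that pool. Of the others, the calls of Dapp1 (-0.52), Fam241a (-0.61) and A930005H10Rik (0.52) were lost without Fabp6KO-F-1, at -0.39, -0.46 and 0.48. Dapp1 was also lost without Fabp6KO-M-2 (-0.48), and Elovl6 (-0.50) without Fabp6KO-M-1, Fabp6KO-F-2, Fabp26KO-M-1 or Fabp26KO-F-1 (-0.37 to -0.50). For Pde5a, Ampd2, Fam241a and Elovl6 the probe set of highest signal was not called. Elovl6 was also not called on 430B (-0.28). Farther out on chromosome 3, Adh6a, an alcohol dehydrogenase, read 11.73, 11.53, 11.74 and 11.73 in the Fabp6KO pools and 9.81, 9.62, 9.56 and 9.91 in the Fabp26KO pools, so that 25.7% was left (-1.96, SE 0.08, adjusted p = 1.61e-11). Flanking DNA that came with a targeted allele and the loss of the gene itself cannot be told apart for genes of this chromosome.

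Of 24 genes of nuclear RNAs and splicing 8 were called lower and none higher (median -0.28). Neat1, the long noncoding RNA that builds paraspeckles, read 11.12, 11.30, 11.14 and 10.95 in the Fabp6KO pools and 9.79, 10.11, 9.78 and 9.86 in the Fabp26KO pools (-1.24, SE 0.09, adjusted p = 3.64e-07). The means of the WT (10.05) and Fabp2KO pools (10.03) were near that of the Fabp26KO pools (9.89), so that Neat1 was high in the Fabp6KO pools alone. The 430B probe set of Neat1 gave -0.01. The others called lower included Malat1 (-0.86, with -0.28 on 430B), the kinase Prpf4b (-0.88, with -0.21 by its probe set of highest signal), the helicase Ddx17 (-0.62), Srrm2 (-0.56) and Tra2a (-0.52, called on both arrays). The 430B value of Tra2a lost its call without Fabp6KO-M-1, Fabp6KO-F-1 or Fabp26KO-F-1 (-0.47 to -0.49). Srrm2 was not called on 430A (-0.39). The mean level of the list was 7.55 to 7.76 in the Fabp6KO pools, 7.24 to 7.40 in the Fabp26KO pools and 7.32 to 7.49 in the WT pools. The log2 ratio of 3′ to 5′ Actb probe sets was -0.18 to -0.04 in the Fabp6KO pools and -0.08 to -0.03 in the Fabp26KO pools, and its part in these falls was not tested.

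Muc2 and Mlxipl, like Neat1, had their highest mean in the Fabp6KO pools. Muc2, the gel-forming mucin of goblet cells, read 12.12, 12.25, 12.38 and 12.25 in the Fabp6KO pools and 11.66, 11.78, 11.64 and 11.64 in the Fabp26KO pools (-0.57, SE 0.06, adjusted p = 3.82e-05), beside WT and Fabp2KO means of 11.69 and 11.76. Mlxipl, also known as ChREBP, a sugar-responsive activator of lipid synthesis, read 9.36, 9.55, 9.74 and 9.53 against 8.92, 8.93, 8.78 and 8.85 (-0.68, SE 0.08, adjusted p = 4.7e-05), with means of 8.87 in WT and 8.89 in Fabp2KO pools. In both genes the 2 groups did not overlap. The other 15 goblet cell genes measured were not called. The WT and Fabp2KO means are given side by side with the comparison and without a test.

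**Figure D3:**
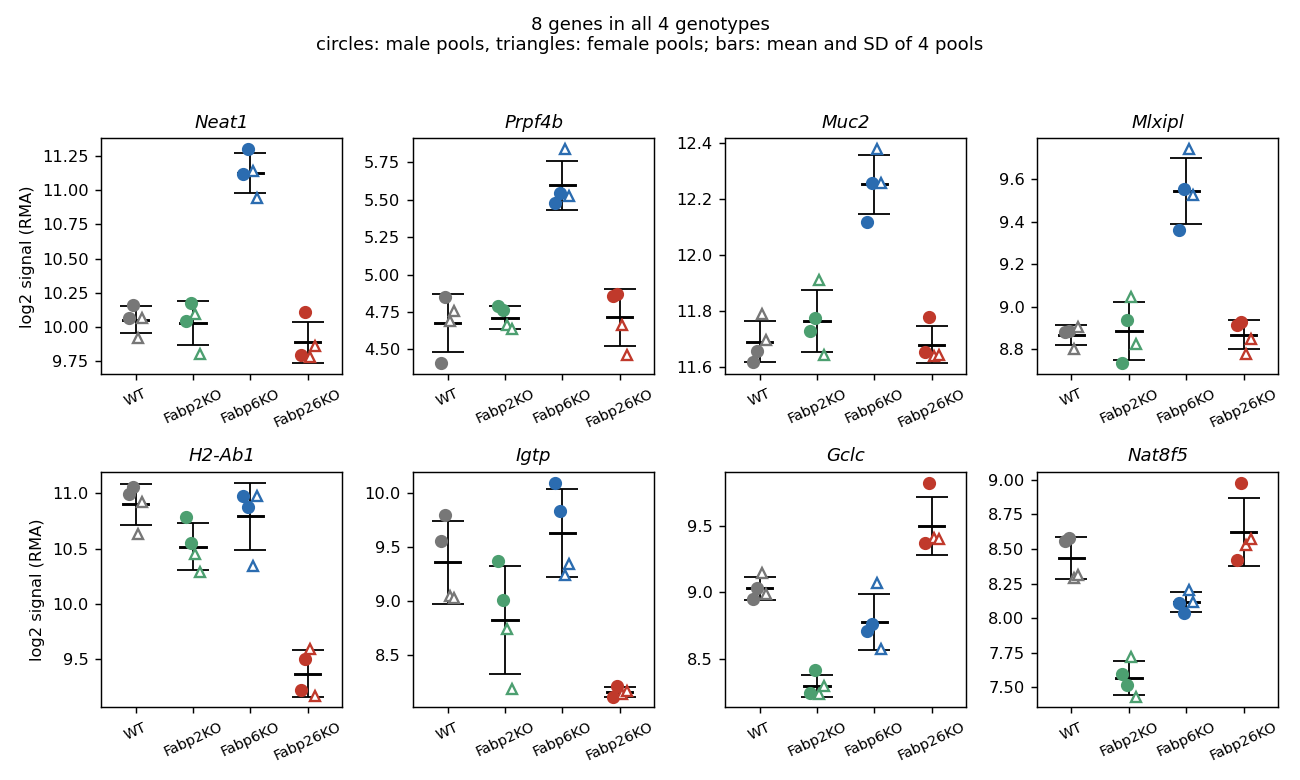
Log2 RMA signal (y axis) of 8 genes in the 4 pools of each of the 4 genotypes (circles male, triangles female, bars mean and SD). Neat1, Prpf4b, Muc2 and Mlxipl are high in the Fabp6KO pools and near the WT level in the Fabp26KO pools, H2-Ab1 and Igtp are lowest in the Fabp26KO pools, and Gclc and Nat8f5 are lowest in the Fabp2KO pools.

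Of 37 esterase and conjugation genes 9 were called higher, and 32 of the 37 had a positive fold change (median 0.21), against 10263 of all 18195 genes. Ces1d, a carboxylesterase that also acts on stored triglyceride, read 6.01, 6.23, 6.07 and 6.40 in the Fabp6KO pools and 7.66, 6.92, 6.84 and 7.63 in the Fabp26KO pools (1.08, SE 0.20, adjusted p = 0.00304). The related Ces1g rose by 0.74 and Ces2a by 0.52, the latter not called without Fabp6KO-M-1, Fabp26KO-M-1 or Fabp26KO-F-1 (0.44 to 0.50). Among the enzymes of conjugation, Ugt2b5 (0.71), Ugt2b38 (0.70), Ugt2a3 (0.64) and Ugt2b36 (0.57), which attach glucuronic acid, and the epoxide hydrolase Ephx1 (0.66) rose. The Ces1 and Ugt2b genes are families of close relatives whose probe sets can share signal.

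Of 40 glutathione genes 6 were called higher and none lower (median 0.15). Gsta3, a glutathione transferase, read 5.51, 5.64, 5.47 and 5.52 in the Fabp6KO pools and 6.36, 6.26, 6.16 and 6.31 in the Fabp26KO pools (0.74, SE 0.07, adjusted p = 8.13e-06). Its rise was the same in both sexes, at 0.73 in males and 0.74 in females. Gsta4, which clears products of lipid peroxidation, read 9.02, 9.29, 9.71 and 9.79 against 10.22, 10.18, 10.07 and 10.20 (0.72, SE 0.07, adjusted p = 2.1e-05). Gclc, the catalytic subunit of the first enzyme of glutathione synthesis, read 8.71, 8.76, 9.07 and 8.57 against 9.37, 9.82, 9.41 and 9.40 (0.72, SE 0.10, adjusted p = 0.00047). The groups did not overlap in these 3 genes, and Mgst2 (0.56), Gstk1 (0.72) and Gsta2 (0.59, but 0.44 and not called without Fabp26KO-F-1) were called as well. Gclc lies on chromosome 9, where 2.69% of the genes tested were called, against 1.24% of all genes. Whether other called genes of this list lie near Gclc was not examined, so their rises are not taken as separate from it.

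Of 54 P450 genes 4 were called higher, and 43 had a positive fold change (median 0.07). Cyp2b10, a target of the xenobiotic receptor CAR, read 8.88, 9.29, 9.55 and 9.35 in the Fabp6KO pools and 9.97, 9.77, 9.86 and 9.94 in the Fabp26KO pools (0.62, SE 0.10, adjusted p = 0.00117). Cyp2c29 read 7.01, 8.40, 10.00 and 9.15 against 9.85, 10.07, 9.88 and 9.79, so that the double-null pools sat close together at the upper end of a wide Fabp6KO range (1.26, SE 0.25, adjusted p = 0.00557). Cyp2j6, which makes signalling epoxides from arachidonic acid, rose by 0.99 on 430A and 1.01 on 430B. Cyp2e1 (0.76) was not called without Fabp26KO-F-2 (0.62).

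**Figure D4:**
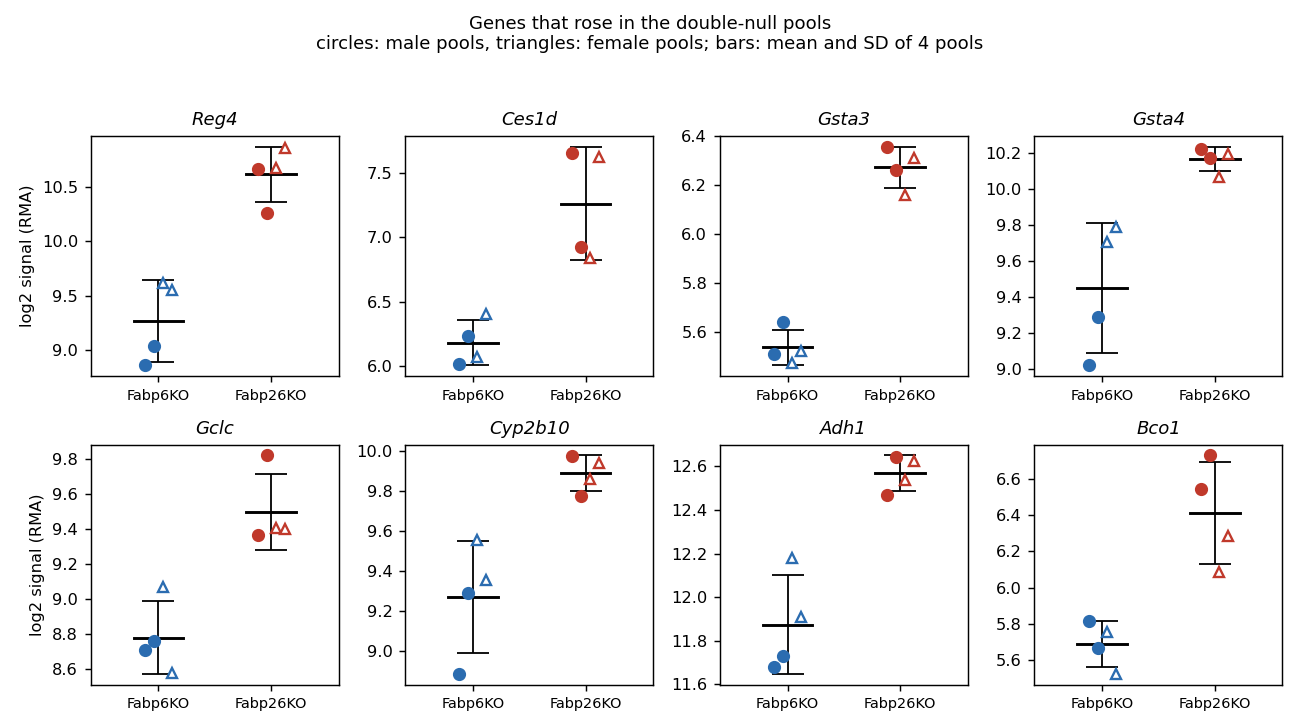
Log2 RMA signal (y axis) of 8 genes that rose, in the 4 Fabp6KO and 4 Fabp26KO pools (circles male, triangles female, bars mean and SD of 4 pools). Every Fabp26KO pool lies above every Fabp6KO pool in each panel, and for Gsta4 the male Fabp6KO pools (9.02 and 9.29) are lower than the female ones (9.71 and 9.79).

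Of 30 genes that handle retinoids and carotenoids, 4 were called higher and 1 lower. Adh1, which oxidises retinol and ethanol, read 11.68, 11.73, 12.18 and 11.91 in the Fabp6KO pools and 12.47, 12.64, 12.54 and 12.63 in the Fabp26KO pools (0.70, SE 0.07, adjusted p = 2.64e-05). Bco1, which cleaves beta-carotene into retinal, read 5.81, 5.67, 5.76 and 5.53 against 6.54, 6.73, 6.09 and 6.29 (0.72, SE 0.09, adjusted p = 0.000109). Bco2, the enzyme that cleaves carotenoids off centre, moved the other way, from 8.34, 8.40, 8.64 and 8.62 to 7.66, 7.81, 7.74 and 7.63 (-0.79, SE 0.10, adjusted p = 0.000126). It lies on chromosome 9, and Adh1 and Adh4 (0.51) lie on chromosome 3. Adh4 was not called without Fabp6KO-M-1, Fabp6KO-F-2, Fabp26KO-M-1 or Fabp26KO-F-2 (0.44 to 0.49), nor Retsat (0.62) without Fabp6KO-M-1 (0.46).

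In 6 lists of fatty acid uptake and triglyceride synthesis, fatty acid oxidation, fatty acid synthesis, cholesterol synthesis, sterol transport and the bile acid response, 3 of 130 measured genes were called lower (2.31%, against 0.78% of all genes) and 5 higher (3.85%, against 0.456%). Me1, the malic enzyme that supplies NADPH, read 7.63, 7.87, 8.02 and 8.09 in the Fabp6KO pools and 8.74, 8.76, 8.74 and 8.53 in the Fabp26KO pools (0.79, SE 0.08, adjusted p = 1.97e-05), and it too lies on chromosome 9. The other 4 rises were each lost when 1 pool or another was left out. Cd36, a fatty acid transporter (0.52), was not called without Fabp6KO-M-1, Fabp6KO-F-2, Fabp26KO-M-1 or Fabp26KO-F-2 (0.31 to 0.47). Pdk4, which holds back glucose oxidation (0.52), was not called without Fabp6KO-M-1, Fabp6KO-F-1, Fabp26KO-M-2 or Fabp26KO-F-2 (0.35 to 0.51). The thiolase Acaa1b (0.67) was lost without Fabp6KO-F-2 (0.49), and Thrsp (0.68) without Fabp26KO-F-2 (0.46). Thrsp was not called on 430B (0.05). The lower genes were Mlxipl, Sc5d and Elovl6. Dgat1, which makes triglyceride, was lower in all Fabp26KO pools (-0.45, adjusted p = 0.00154) but did not reach the limit on the fold change. Mttp, which loads lipid onto chylomicrons, gave 0.01 (95% CI -0.16 to 0.19). None of 13 genes of bile acid signalling and transport was called, with 0.13 (95% CI -0.21 to 0.48) for Fgf15, the ileal hormone induced by bile acids, and 0.02 (95% CI -0.18 to 0.22) for Nr0b2.

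Other rises were spread over several kinds of gene. Erdr1, at 7.93, 7.42, 8.24 and 9.12 in the Fabp6KO pools and 9.33, 9.48, 9.48 and 9.53 in the Fabp26KO pools, rose 2.43-fold on 430A (1.28, SE 0.14, adjusted p = 4.06e-05), while its 430B probe set gave 0.07. Mt2, a metallothionein that binds zinc and copper, rose from 10.53, 11.02, 10.47 and 10.63 to 12.17, 11.94, 10.94 and 11.38 (0.95, SE 0.13, adjusted p = 0.000254). Pck1, a gluconeogenic enzyme, read 8.18, 8.96, 8.69 and 8.86 against 8.99, 9.36, 9.74 and 10.01 (0.85, SE 0.14, adjusted p = 0.00141) and was called on both arrays. In these 2 genes the pools within a group differed by about as much as the groups did. The brush border peptidases Mme (0.62) and Mep1a (0.60) and the calmodulin-like Calml4 (0.73), also of the brush border, rose as well, whereas Slc36a1, an amino acid carrier, was lower (-0.57). Slc36a1 was not called without Fabp6KO-F-1, Fabp26KO-M-1 or Fabp26KO-F-2 (-0.36 to -0.49), nor Mep1a on 430A (0.46).

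All 10 adipocyte genes, a list written after values had been seen, had positive fold changes (median 0.25), and Adipoq (0.79) and Car3 (0.87, with 0.24 on 430B) were called. Adipoq was not called without Fabp26KO-F-2 (0.61), Fabp26KO-M-1 (0.71) or Fabp6KO-M-2 (0.69), nor Car3 without either of those Fabp26KO pools (0.68 and 0.72). The mean level of the adipocyte list was 6.78 to 7.12 in the Fabp6KO pools and 7.13 to 7.43 in the Fabp26KO pools. It was 6.98 to 7.05 in the WT pools and 7.08 to 7.68 in the Fabp2KO pools. Of 12 plasma protein genes of hepatocytes, Alb (0.68) and Ttr (0.61) were called, and the mean level was 5.56 to 6.31 in the Fabp6KO pools and 5.91 to 6.35 in the Fabp26KO pools. Without Fabp26KO-M-1 neither was called (0.40 and 0.44), nor without Fabp26KO-F-2 (0.46 and 0.45), and Alb also not without Fabp6KO-M-2 or Fabp6KO-F-1 (0.53 and 0.52). Ttr was not called on 430B (0.49). The 16 pancreatic genes had no call, at mean levels of 10.87 to 11.40 and 10.62 to 11.60. Enterocyte genes, the defining markers of the tissue, had mean levels of 10.94 to 11.14 in the Fabp6KO pools and 11.07 to 11.20 in the Fabp26KO pools, with 1 of 14 called (Mep1a). The 24 genes of crypts and cell division had no call, and Lgr5, the stem cell marker, gave 0.03 (95% CI -0.14 to 0.20). The part of these other cells in the rises was not tested.

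The sexes were then taken apart. In males 176 genes were called lower (0.967% of those tested) and 149 higher (0.819%), in females 144 lower (0.791%) and 41 higher (0.225%). Of these, 81 were lower in both sexes and 23 higher in both. For the genes called over both sexes, the median fold change of the lower ones was -0.68 in males and -0.61 in females, and that of the higher ones 0.78 and 0.45. The rise of detoxification genes was called for 23 of the 131 genes in males and for 7 in females, and the fall of the interferon and antigen presentation genes for 35 of 100 in males and 19 in females. Such counts do not test a difference between the sexes. By the interaction of sex and genotype, only 3 genes passed (0.0165%) in limma, and 933 had an unadjusted p under 0.05. With 18195 genes tested, a share of 0.05 is expected there with no difference between the sexes, so the 933 are near the count that chance gives. The count was 0 with cyclic loess, 1 with the 8 pools alone, 0 without Fabp26KO-M-2, 1 without Fabp6KO-M-1 or Fabp26KO-F-1, 7 without Fabp26KO-M-1, 10 without Fabp26KO-F-2, 15 without Fabp6KO-F-1 and 101 without Fabp6KO-F-2. These 3 were Saa1, the unnamed transcript 2310057J18Rik (1.27 in males, 0.07 in females) and Scpep1. Scpep1, a serine carboxypeptidase, was lower in the double-null males (7.31 and 7.38 against 8.05 and 8.32) and not in the females (8.51 and 8.01 against 7.85 and 7.96).

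Without the pool labelled Fabp6KO-F-2, 188 genes were called lower (1.03%) and 97 higher (0.533%). Of the 142 lower genes 134 remained, 8 were lost and 54 were gained, and of the 83 higher genes 70 remained, 13 were lost and 27 were gained. No called gene turned in sign, and the fold change without the pool was 0.35 to 1.75 times that with it (median 1.02). Of the 32 lower interferon and antigen presentation genes 31 remained, Cxcl9 was lost and Eif2ak2 was gained, and all 19 higher detoxification genes remained, with Cyp1a1 and Gstm3 gained. With the pool left out 1 female Fabp6KO pool remained, Fabp6KO-F-1. Its own high or low values then decided the female difference, and 348 genes were called lower and 111 higher in females. Genes gained included Exph5 (-0.48 with the pool, -0.66 without), which read 7.39, 7.32, 8.20 and 7.46 in the Fabp6KO pools, and Tha1 (-0.42 and -0.68), at 7.06, 7.10, 7.87 and 6.83. Both were highest in Fabp6KO-F-1. Fabp6 itself was then alike in the 2 groups (0.11).

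Finally, the comparison was set beside that of mice with Fabp6 intact, Fabp2KO against WT pools, which share no pool with the comparison. There 85 genes were called lower (0.467%) and 38 higher (0.209%). Of the 225 genes called on the Fabp6-null background, 156 had the same sign on the intact background (69.3%, against 55.6% of all genes), and 36 were called in the same direction on both. These 36 were 16% of the calls on the null background and 29.3% of those on the intact one, and 11 of them lie on chromosome 3 and 10 on chromosome 9. They include Adh6a (-1.96 on the null and -2.21 on the intact background), Pclaf, a proliferation-linked factor (-1.28 and -1.70, but 0.03 on 430B on the null background), Bco2 (-0.79 and -0.98), Me1 (0.79 and 0.75), Reg4 (1.35 and 0.83) and Erdr1 (1.28 and 1.07).

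The difference between the 2 backgrounds was tested directly and passed for 282 genes (1.55%), of which 115 were among the 225. The class II genes H2-Ab1, Cd74 and H2-Eb1 were not called with Fabp6 intact (-0.38, -0.15 and -0.17), and the differences between backgrounds of -1.04, -1.06 and -0.73 passed (adjusted p = 0.0044, 0.0013 and 0.0044). Igtp and Irgm2 fell on both backgrounds, and more so on the null one by 0.93 and 0.85. The Irgm2 means were 7.37 in WT, 6.70 in Fabp2KO, 8.01 in Fabp6KO and 6.50 in Fabp26KO pools. Those of Igtp were 9.36, 8.83, 9.63 and 8.16 in the same order. Both genes thus had their highest mean in the Fabp6KO pools, and the larger fall includes that higher level. Gbp2 fell by 1.01 and 0.69, a difference that did not pass (-0.32, adjusted p = 0.18). Of the 32 interferon and antigen presentation genes, 22 had a called difference, as had 16 of the 19 detoxification genes. These genes were picked by calls on the same Fabp26KO and Fabp6KO pools that enter the difference. The 2 counts, like the 115 of the 225, are thus partly built in and give no separate support. Gclc and Nat8f5, a gene of the N-acetyltransferase family, moved in opposite directions. Gclc fell by 0.73 with Fabp6 intact and rose by 0.72 without it (difference 1.45, adjusted p = 4e-05), and Nat8f5 fell by 0.87 and rose by 0.51 (difference 1.38, adjusted p = 4e-05). The rise of Nat8f5 lay at the limit and was not called without Fabp6KO-M-2, Fabp6KO-F-2, Fabp26KO-M-2 or Fabp26KO-F-2 (0.37 to 0.50). Saa1 and Reg2 rose with Fabp6 intact (1.29 and 1.18) and fell on the null background.

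**Figure D5:**
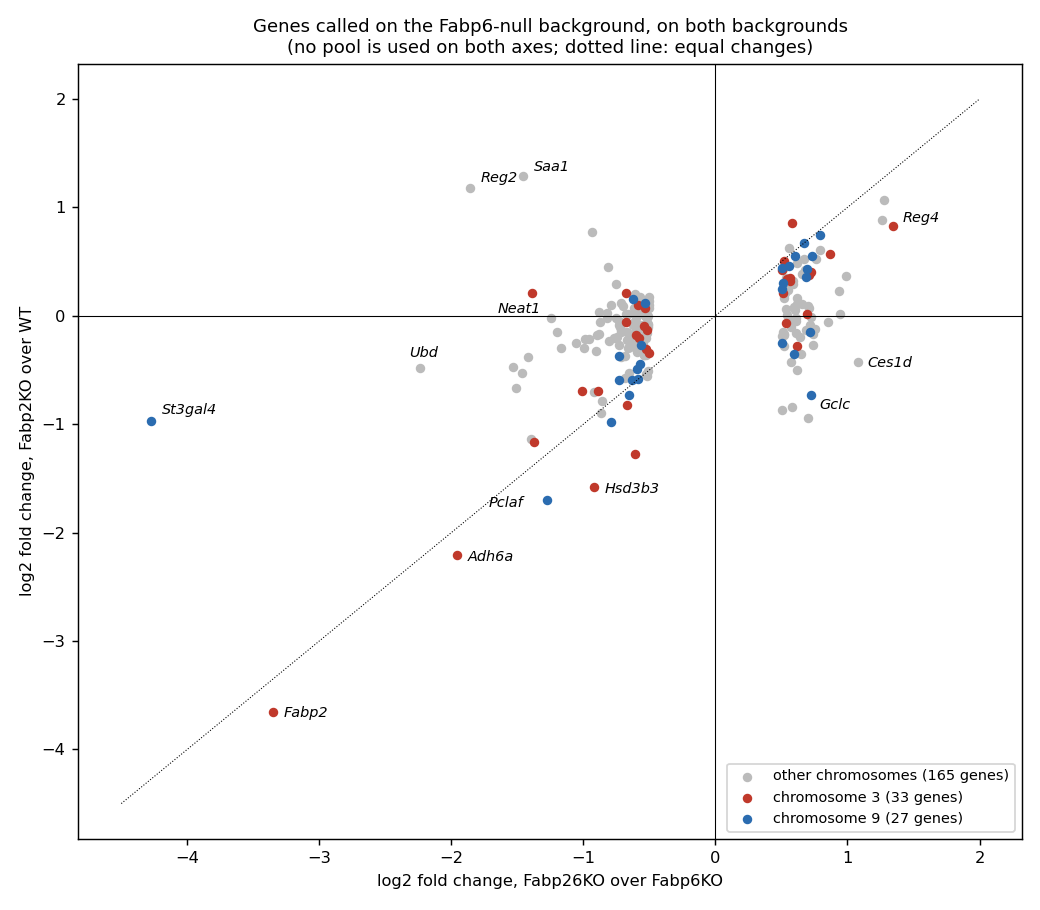
Log2 fold change of Fabp26KO over Fabp6KO (x axis) and of Fabp2KO over WT (y axis) for the 225 genes called on the Fabp6-null background, 1 point a gene, with chromosome 3 in red and chromosome 9 in blue. Fabp2, Adh6a and Pclaf lie near the dotted line of equal changes, St3gal4 and Ubd far above it, and Gclc has opposite signs on the 2 axes.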

How the data were processed

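Total RNA of 16 pools was hybridized to 430A and 430B arrays. The deposited values are log2 signals that the authors made by RMA, on each array type separately. The RMA version is not given in the sources used here. Probe sets naming several genes or none were left out, and for each gene and array only the probe set whose interquartile range across pools was widest entered the fit, leaving 12394 genes on 430A and 9612 on 430B. Means of the 8 groups of genotype and sex were fitted per array type with limma 3.58.1 (lmFit, eBayes) in R 4.3.3 over all 16 pools, with 8 residual degrees of freedom. The contrast was the mean of the male and the female difference, and two-sided p-values received Benjamini-Hochberg adjustment within each array type. A gene on both arrays counted as called if either array called it. Of 57 genes on both arrays that were called on at least 1, 9 were called on both. With 2 pools per genotype and sex, their number limits the precision, and the raw array files were not analysed here. The fit was tested on simulated data.

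Same-numbered pools were not paired by the labels, and their deviations correlated at 0.07 in males and -0.05 in females, so no block was used. Genes were named by a rule that took the 12 largest falls and rises among called genes whose pools did not overlap, the targets, genes beside Fabp2, up to 4 leading members of each list and others with a role in it, and genes that differed by sex, background or the pool labelled Fabp6KO-F-2. Genes outside it were named after their values were seen. The comparison, gene lists and tests were chosen with earlier results of these data known. Alternatives were the brightest probe set of a gene, every probe set, filters on signal and interquartile range, adjustment over both array types, an intensity trend with a robust prior, cyclic loess, the 8 pools alone, a replicate block, an FDR of 0.05 and each pool left out.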

Additional observations from a re-analysis of the deposited data

Results flagged for a closer look

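Some pools stood apart from the other 3 of their genotype by Dixon's test, which marks about 1 in 20 groups of 4 by chance. The genes marked are among the 141 named genes, each with a Fabp6KO and a Fabp26KO group. Among so many groups a number of marks is expected by chance, so a single mark is no finding by itself. As a share of the range of the 4 pools, the gap was widest for Fabp6 in Fabp6KO-F-2 (0.98) and St3gal4 in Fabp26KO-M-2 (0.94). The pool labelled Fabp6KO-F-2 had a Fabp6 signal of 9.21, where the other Fabp6KO pools had 4.80 to 4.91. The same pool was lowest for Mme (9.05 against 9.37 to 9.40), Gbp7 (6.29) and Sc5d (8.58). Fabp6KO-F-1 was lowest for H2-Ab1 (10.34) and highest for Exph5, a gene on chromosome 9 (8.20). Fabp6KO-M-2 was lowest for Adh6a (11.53).

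Among the double-null pools, Fabp26KO-M-2 was highest for St3gal4 (11.41, next highest 6.72) and for Sc5d (8.64, next highest 7.91), both on chromosome 9. It was also highest for Gclc on that chromosome (9.82), Oasl2 (7.48) and Muc2 (11.78). A link of this pool to chromosome 9 was not tested. Fabp26KO-F-2 was lowest for Me1 (8.53), and Fabp26KO-F-1 was highest for Dapp1 (6.52).

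The difference between the sexes, as the female minus the male fold change, passed the test for 3 genes, each with an adjusted p of 0.0929 in limma. It was 2.63 for Saa1, -1.20 for 2310057J18Rik and 1.19 for Scpep1.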

How the results depend on the processing

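Over both sexes, the other settings gave 185 to 237 calls (114 to 151 lower, 71 to 86 higher), and leaving out single pools gave 202 to 285 (118 to 188 lower, 67 to 106 higher). In males the single pools gave 227 to 359 (125 to 195 lower, 102 to 173 higher). In females they gave 127 to 459 (90 to 348 lower, 27 to 111 higher), with 459 without Fabp6KO-F-2, 90 lower and 66 higher without Fabp6KO-F-1, and 64 and 27 higher without Fabp26KO-F-1 and Fabp26KO-F-2. An FDR of 0.05 left 116 female calls (92 lower, 24 higher). The interaction gave 0 with cyclic loess and at an FDR of 0.05, 1 with the probe set of highest mean signal and with the 8 pools alone, 6 with the filter on interquartile range, and 0 to 101 with pools left out, where 101 came without Fabp6KO-F-2, 15 without Fabp6KO-F-1 and 0 without Fabp26KO-M-2. Windows of 100 and 400 genes on each side of Fabp2 held 4 and 17 calls. Without Fabp6KO-F-2 the backgrounds differed for 345 genes and 107 list members were called. The replicate block, whose numbers do not pair the pools, gave 225 calls over both sexes (142 lower, 83 higher), 327 in males, 188 in females and 4 interactions.

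Of 184 counts, 160 stayed within 1.5 times. Of 2390 values of single genes 2208 kept direction and side of the threshold, 138 fell short of it, 42 passed it newly and 2 turned in sign, both with the probe set of highest mean signal: Pclaf (0.085) and Ctse, a gastric protease (0.13). The cause was not tested. Of the 120 named genes called, 69 kept the call in all alternatives run. With 2 pools per sex and genotype, each of 2 mice, and 8 residual degrees of freedom, the number of arrays limits the precision.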

Other observations

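Several smaller groups moved by a gene or a few. Of 19 Clca and Ceacam genes 4 were lower, namely the adhesion molecule Ceacam1 (-0.59) and the secreted proteins Clca3a2 (-0.60), Clca3a1 (-0.58) and Clca3b (-0.52). The 3 Clca genes lie on chromosome 3 within 400 genes of Fabp2, where flanking DNA and the loss of Fabp2 cannot be told apart. Clca3a2 was not called on 430B (-0.11). All 4 Fabp26KO pools lay below the Fabp6KO pools for Ceacam1 (5.52 to 5.96 against 6.23 to 6.46), but its probe set of highest mean signal gave -0.26, and the 3 Clca calls were lost without Fabp6KO-F-1 (-0.36 to -0.47), that of Clca3b also without Fabp6KO-M-2 (-0.50) or Fabp26KO-F-2 (-0.48). The heat shock gene Hsph1 fell (-0.73), with 6.40 to 6.89 in the Fabp26KO pools and 7.18 to 7.53 in the Fabp6KO pools. Serpini2, a pancreas-enriched serpin on chromosome 3, read 6.47, 5.36, 5.62 and 6.05 in the Fabp6KO pools and 4.71, 4.14, 4.82 and 4.32 in the Fabp26KO pools (-1.37), and it also fell with Fabp6 intact (-1.16).

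On the other background 2 of 16 pancreatic genes were called higher. The mean level of that list varied widely between pools of a genotype, at 10.28 to 11.61 in WT and 11.20 to 12.01 in Fabp2KO. Ctrc and Prss3 rose with Fabp6 intact (2.05 and 2.43) and not on the Fabp6-null background (-0.12 and -0.06), and the difference between backgrounds passed in limma (adjusted p = 0.00013 and 0.038). Scpep1, on chromosome 11, read 7.36 to 7.49 in all Fabp2KO pools and 8.38 to 8.68 in the WT pools, while the Fabp26KO males read 7.31 and 7.38 and the females 8.51 and 8.01.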
